A study of Mus musculus with 6 samples.

Results

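The baseline of the upper jaw primordium was described from 3 wild-type (WT) samples of maxillary processes, chosen by their genotype label, of 6 samples in the whole series. The WT embryos were C57BL/6 mice by their strain label, and C57BL/6J by the growth protocol and the study's methods, at embryonic day (E) 12.5, and their labels name no transgene, Cre or deletion. The other 3 samples come from embryos that overexpress Dlx2 and were not used, so genotypes are not compared here. RNA of dissected maxillary processes was selected by its poly(A) tail and sequenced, and the number of reads on each gene was deposited. The labels speak of 7 littermates and of 3 independent RNA samples per genotype, without saying which embryos, or of which sex, went into each sample, and the study's methods give another number of littermates. The spread between samples may therefore hold both biological and technical parts.

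The maxillary processes are paired swellings of the first pharyngeal arch that flank the primitive mouth. Their core is mesenchyme of neural crest origin, with vessels and some mesoderm, under a cover of surface ectoderm. They form the cheek, the lateral upper lip and the upper jaw, and from their inner side grow the shelves of the secondary palate. Ligands made by the epithelium, such as sonic hedgehog, FGF, BMP and WNT proteins, pattern the mesenchyme, in which homeodomain factors mark positions.

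The libraries held 31308813, 31204912 and 30332754 counts on genes in WT 1, WT 2 and WT 3. CPM is the count of a gene per 1000000 counts of its library, and it was used to compare 1 gene between samples. TPM, in which each count is first divided by the exon length of the gene and the result scaled to 1000000, was used to compare different genes. Genes shorter than 200 bases took 2.53%, 8.21% and 4.40% of all TPM in WT 1, WT 2 and WT 3. As TPM sums to a fixed total, TPM orders and SDs between samples hold this difference too. A floor of 3 counts corresponded to 0.0958 to 0.0989 CPM and covers counting error only. A gene was taken as detected at 1 CPM or more in each of the 3 samples. Series of 3 values below are for WT 1, WT 2 and WT 3 in that order, and means are given ± SD over these samples (n = 3).

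In all, 13944 of 53801 listed genes were detected, of which 92.8% were protein-coding, and 58.9% of all protein-coding genes were detected. Of 21954 nuclear protein-coding genes 40.9% had a mean of 10 TPM or more. Counts of detected members in the lists below are to be read against these shares. The 100 most counted genes took 21.1%, 22.0% and 17.1% of the counts, a mean of 20.1 ± 2.59%. WT 3 had the flattest distribution, in which 1191 genes made up 50% of the counts against 954 in WT 1 and 968 in WT 2. It also had the lowest share of mitochondrially encoded RNA, at 3.68% against 4.70% and 5.10%, and of ribosomal protein RNA, at 6.31% against 9.0% and 9.81%. Of all detected genes, 50.2% had their highest CPM in WT 3, and this share was 34.2% when the libraries were scaled by the trimmed mean of M-values (TMM).

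The most abundant nuclear protein-coding RNAs served translation. Eef1a1, which codes for the factor that brings aminoacyl-tRNA to the ribosome, led with 16340 ± 2602 TPM, and 15 of the 20 most abundant genes coded for ribosomal proteins. Among these, Rplp1 had 7885 ± 1483, Rps3a1 5548 ± 638 and Rps15 5432 ± 1010 TPM. The other 4 of the 20 were the embryonic globin Hbb-y at 10910 ± 616 TPM, Ptma, a nuclear acidic protein gene, at 6873 ± 429, Tmsb10, which codes for an actin-binding peptide, at 3545 ± 370.4 and Tpt1 at 3162 ± 229 TPM. Of the 100 most abundant genes, 59 coded for ribosomal proteins, 3 for globins and 0 for transcription factors of the lists used here.

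Several genes known from growing embryonic mesenchyme were abundant as well. The imprinted non-coding RNA H19 had 2104, 2726 and 2391 CPM, with a mean level of 2997 ± 317 TPM. Mdk, which codes for the heparin-binding growth factor midkine, had 834, 837 and 762 CPM, and these 3 values lay close together. Gpc3, a cell surface proteoglycan gene, had 1459 ± 223, the imprinted gene Nnat 1398 ± 144 and the IGF carrier Igfbp5 1232 ± 360.4 TPM. Igfbp5 was further apart between samples than Mdk, with 1695, 2639 and 2867 CPM.

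Among 714 transcription factor genes in 16 families, 449 were detected and 291 had a mean of 10 TPM or more. That share of 40.8% was close to the 40.9% of all 21954 nuclear protein-coding genes. Transcription factors made up 1.53% of all TPM, and the 20 most abundant of them held 29.1% of that sum. Barx1, a homeodomain factor of first arch mesenchyme, was the most abundant in each sample, with 481, 431 and 657 TPM. Twist1, a basic helix-loop-helix factor of cranial mesenchyme, had 357, 315 and 547 TPM, and Six2, a homeodomain factor of facial mesenchyme, 326, 364 and 455 TPM. By TPM all 3 were highest in WT 3, and their ranges overlapped with that of the next in the order. By CPM Barx1 had 218, 214 and 276, and 50.2% of all detected genes were highest in WT 3.

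**Figure D1:**
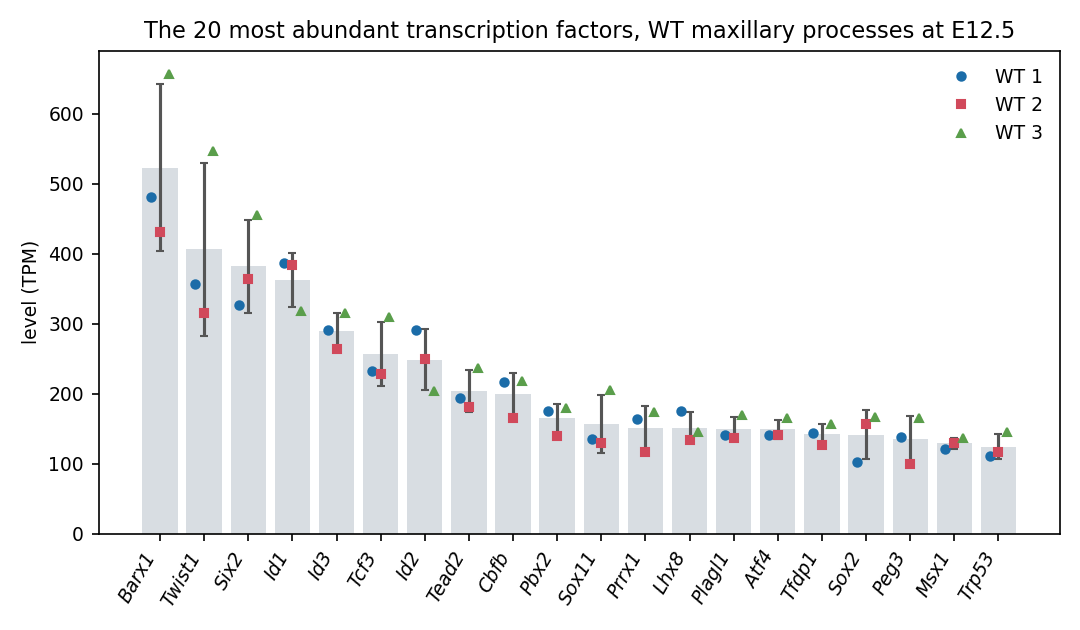
Bars give the mean level (TPM, linear axis from 0) of the 20 most abundant transcription factors in WT maxillary processes, error bars the SD over 3 samples, and symbols the 3 samples. Levels fall from 523 TPM for Barx1 to 125 TPM for Trp53, and the ranges of nearly all neighbours overlap.

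The next places were held by regulators of basic helix-loop-helix factors. Id1, Id3 and Id2, whose proteins bind such factors and keep them from DNA, had 363 ± 38.5, 289.9 ± 26.1 and 248.5 ± 43.6 TPM, and Tcf3, which codes for a common partner of Twist1, had 257 ± 45.8 TPM. They were followed by Tead2, a DNA-binding partner in the Hippo pathway, at 204 ± 29.6, by Cbfb, the partner of Runx factors, at 200.1 ± 30.2, and by Pbx2, a partner of homeodomain factors, at 165 ± 21.25 TPM. Sox11, Prrx1, Lhx8, Plagl1, Atf4, Tfdp1, Sox2, Peg3, Msx1 and Trp53 completed the 20, from 157 TPM for Sox11 to 125 TPM for Trp53.

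The order within the 20 was only partly resolved by 3 samples. Of its 19 pairs of neighbours, 18 had overlapping ranges. The exception was Id1 above Id3, with a lowest value of 318 TPM for Id1 and a highest of 316 TPM for Id3. Of the 20, 15 were among the first 20 in each sample. Sox2, a factor of neural and epithelial progenitors, had 68.03, 114 and 103 CPM and ranked 26, 10 and 14. Lhx8, a LIM homeodomain factor of oral mesenchyme, had 144.5, 120.3 and 109.9 CPM and ranked 10, 14 and 24. The list ended between Trp53 and Sp3, which had 121 TPM. When only exon bases free of other genes were taken as the length, 19 of the 20 stayed in the list.

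The families differed in the share of members in use. Of 196 homeobox genes, 77 were detected and 50 reached 10 TPM, with a median of 0.445 TPM, although Barx1 and Six2 are among the most abundant factors. The basic helix-loop-helix family had 46 of 104 at 10 TPM or more. The group of Runt, Rel, Stat, Smad, Nfat and Nfi factors, led by Cbfb, Tfdp1 and Trp53, had 42 of 61. Forkhead genes reached it in 22 of 44 cases, led by Foxp4 at 114 ± 35.7, Foxf2 at 110.2 ± 45.4 and Foxf1 at 65.9 ± 16.1 TPM. Of the 9 genes of the paired list Pax9, a factor of palate and tooth mesenchyme, alone reached it, at 60.25 ± 16.75 TPM, while Pax3 had 5.65 ± 3.798 and Pax1 5.08 ± 2.38 TPM. In the Sox family, led by Sox11, Sox2 and Sox12, 9 of 20 did.

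Smaller families had these leaders. Tbx2 at 85.8 ± 14.7, Tbx3 at 41.7 ± 8.75 and Tbx15 at 34.8 ± 10.48 TPM led the T-box genes, of which 6 of 17 had 10 TPM or more. Snai2, a repressor of epithelial genes, led the Gli, Zic and Snail zinc fingers at 88.3 ± 15.3 TPM. Tfap2c, Tfap2b and Tfap2a, AP-2 factors of ectoderm and neural crest, had 22.6 ± 4.06, 21.5 ± 9.02 and 7.89 ± 1.15 TPM. The nuclear receptors were led by Rarg at 98.55 ± 20.7, a receptor of retinoic acid, and Rxra at 68.6 ± 17.45 TPM, and the ETS genes by Erf at 104 ± 12.9 and Ets2 at 60.8 ± 10.9 TPM.

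Chromatin proteins of the high mobility group, kept apart because they bind DNA with little sequence preference, were abundant. Hmgb1 had 953 ± 150.5, Hmgn2 869.5 ± 40.03, Hmgn1 790.0 ± 86.1 and Hmgb2 728 ± 90.5 TPM, all above Barx1. Hmga2, a gene of embryonic cells, had 501, 356.5 and 512 CPM and was lowest in WT 2.

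Upstream sequence is shown for the 3 most abundant transcription factors and, for contrast, for the leading marker of each of 3 specialised cell types (globin, keratin and muscle actin). Each run holds the bases from 250 to 51 before the RefSeq start, 5′ to 3′ on the strand of the gene, from the RefSeq promoter table of build GRCm38.p6, and capitals mark every CG dinucleotide:
Barx1 (chr13:48662786-48662985, forward strand): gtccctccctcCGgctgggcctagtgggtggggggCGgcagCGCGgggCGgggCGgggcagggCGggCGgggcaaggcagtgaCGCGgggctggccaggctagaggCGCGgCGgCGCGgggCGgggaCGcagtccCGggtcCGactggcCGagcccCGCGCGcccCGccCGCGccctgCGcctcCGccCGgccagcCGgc
Twist1 (chr12:33957421-33957620, forward strand): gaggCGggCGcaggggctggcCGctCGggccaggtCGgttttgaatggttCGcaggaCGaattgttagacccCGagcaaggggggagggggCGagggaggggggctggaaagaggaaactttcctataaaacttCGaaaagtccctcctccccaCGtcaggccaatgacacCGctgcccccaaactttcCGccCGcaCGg
Six2 (chr17:85688305-85688504, reverse strand): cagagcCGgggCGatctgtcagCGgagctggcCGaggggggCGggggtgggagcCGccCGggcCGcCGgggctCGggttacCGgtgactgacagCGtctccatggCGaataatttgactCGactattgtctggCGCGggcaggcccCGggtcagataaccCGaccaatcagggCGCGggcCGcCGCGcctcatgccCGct
Hbb-y (chr7:103853258-103853457, reverse strand): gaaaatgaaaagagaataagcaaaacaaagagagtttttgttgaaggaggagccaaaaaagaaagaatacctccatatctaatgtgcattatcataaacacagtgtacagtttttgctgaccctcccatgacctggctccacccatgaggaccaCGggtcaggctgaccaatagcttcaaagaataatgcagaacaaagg
Krt14 (chr11:100206081-100206280, reverse strand): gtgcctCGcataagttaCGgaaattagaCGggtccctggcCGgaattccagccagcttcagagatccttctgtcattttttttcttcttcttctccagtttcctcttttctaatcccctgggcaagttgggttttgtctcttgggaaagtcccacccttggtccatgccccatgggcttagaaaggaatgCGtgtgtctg
Actc1 (chr2:114052926-114053125, reverse strand): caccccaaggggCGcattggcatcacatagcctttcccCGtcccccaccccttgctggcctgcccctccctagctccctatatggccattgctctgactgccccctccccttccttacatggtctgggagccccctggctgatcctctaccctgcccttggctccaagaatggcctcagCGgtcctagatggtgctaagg
These 200 bases held 30 CG in Barx1, 15 in Twist1 and 24 in Six2, against 1 in Hbb-y, 5 in Krt14 and 3 in Actc1. The ratio of observed CG to that expected from the C and G content was 0.845, 0.765 and 0.964 for the factors, and 0.119, 0.4102 and 0.1702 for the other genes.

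The CG content of promoters differed with level across the genome. Of 21928 nuclear protein-coding genes with a unique symbol, 13829 had a single promoter in the table, and the 250 bases before the start were scored. The median ratio of observed to expected CG was 0.1796 for 5319 genes under 1 CPM in every sample, 0.581 for 1744 detected genes under 10 CPM, 0.763 for those at 10 to 100 CPM and 0.822 for those at 100 to 1000 CPM. It was 0.773 for 146 transcription factors at 10 TPM or more. The letters TATAAA, searched on both strands, stood in 23.5% of the promoters of genes under 1 CPM and in 5.47% of those at 10 to 100 CPM. Over all 13829 genes the share was 12.7%. For GGGCGG, the letters of the GC box, these shares were 14.97%, 64.8% and 43.6%, and for CCAAT 36.2%, 37.1% and 36.5%. The 58 genes at 1000 CPM or more had a median ratio of 0.8415, with TATAAA in 8.62%, GGGCGG in 48.3% and CCAAT in 39.7%. Such matches describe letters in a window and not binding.

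In groups of related genes 1 member usually led. Of 58 groups of paralogues, 51 had the same leader in each sample, and in 39 groups the lowest value of the leader stood above the highest of any other member. Twist1 held 98.8% of its sum with Twist2, Barx1 97.9% of its sum with Barx2, Msx1 94.5% of the sum of 3 Msx genes, and Pax9 92.0% of its sum with Pax1. Lhx2 with 96.0% and Lin28b with 94.3% were the other leaders at 90% or more, 6 in all, but neither Lhx2 nor Lhx9 was detected in every sample.

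**Figure D2:**
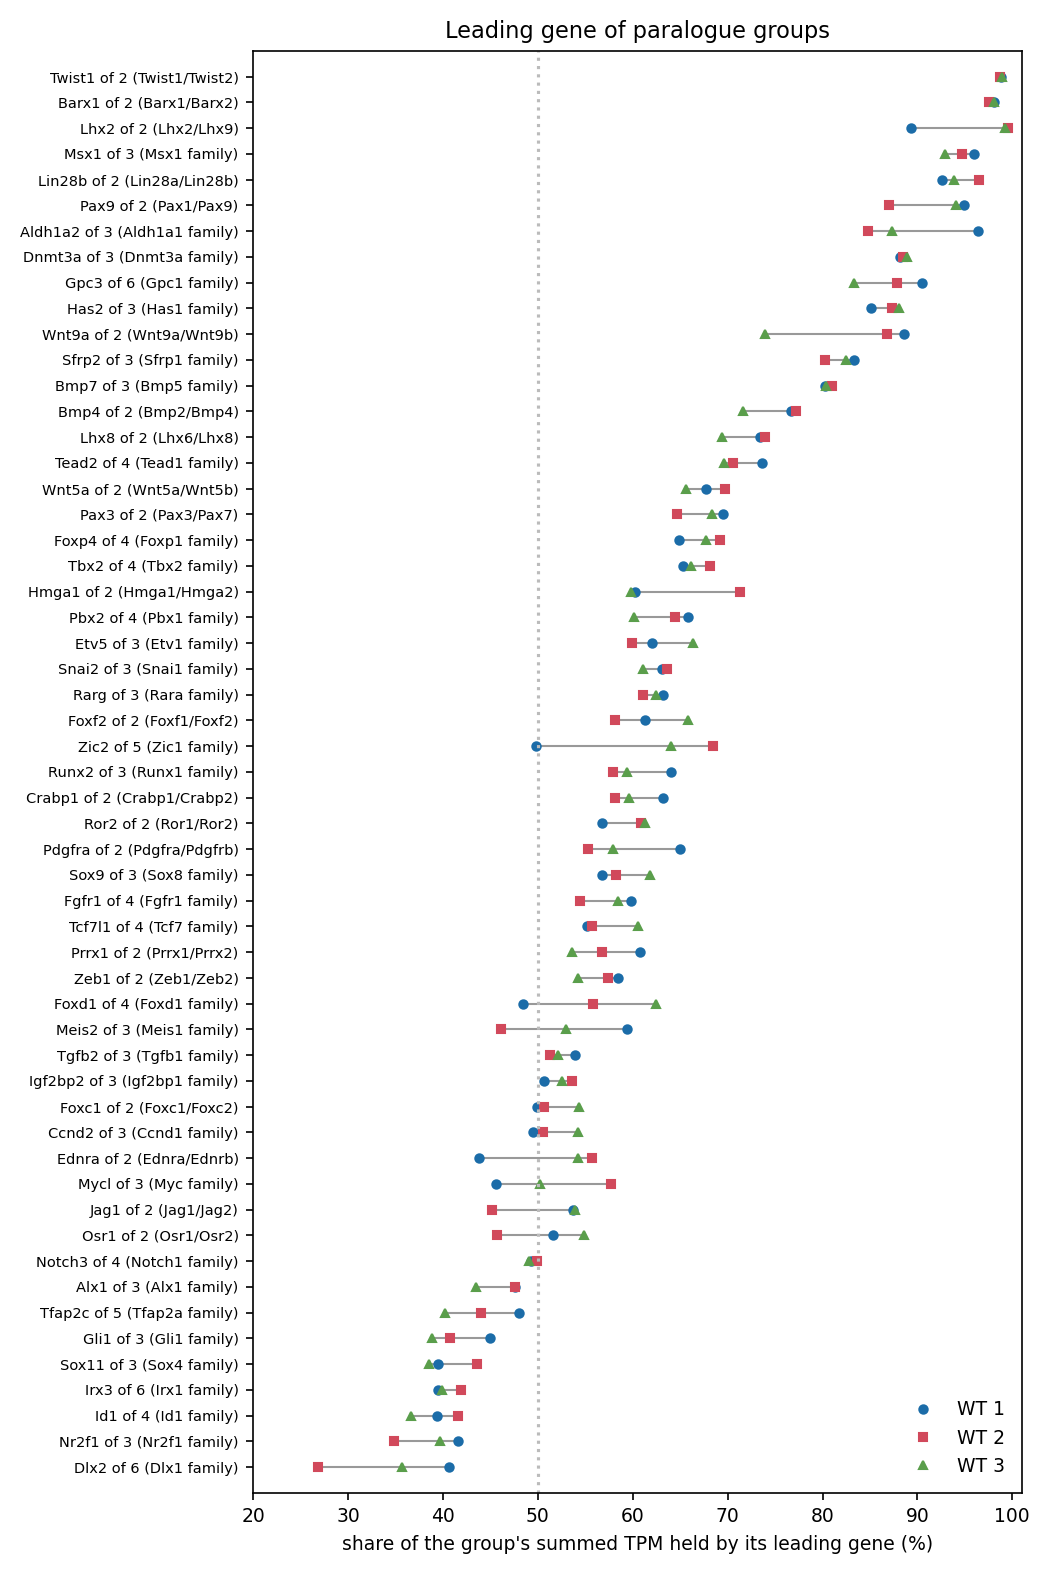
Each line is a group of paralogues (3 of the 58 are not drawn), and symbols give the percent of the summed TPM of the group held by its leading gene in each WT sample. The dotted line marks 50%, and the leaders range from Twist1 at 98.8% to Dlx2 at 34.4% of 6 Dlx genes.

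Several groups with known parts in jaw and palate had a leader and a well expressed second member. Lhx8 had 2.60 times the TPM of Lhx6, Bmp4 2.94 times that of Bmp2 and Wnt5a 2.07 times that of Wnt5b. Has2, the main hyaluronan synthase of embryos, had 29.7 ± 5.79 TPM and 8.14 times the level of Has3. Aldh1a2, which makes retinoic acid, led Aldh1a3 by 9.08 times, and Aldh1a3 ran from its lowest value in WT 1 with 12.65, 41.7 and 48.9 CPM.

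In 7 groups the leader changed between samples, namely Foxc1 and Foxc2, Ednra and Ednrb, Jag1 and Jag2, Osr1 and Osr2, Foxd1 and Foxd2, Nr2f1 and Nr2f2, and Tfap2c and Tfap2b. Osr1 and Osr2, zinc finger factors of the palate, had 90.45 ± 23.9 and 86.2 ± 9.24 TPM. The Dlx genes, which pattern the first arch, had the lowest leading share of the groups, over 6 members, with Dlx2 at 43.6 ± 10.46, Dlx1 at 32.5 ± 7.575, Dlx5 at 25.7 ± 8.59, Dlx3 at 17.9 ± 5.585 and Dlx6 at 7.57 ± 3.745 TPM. Dlx2 held 40.6%, 26.8% and 35.7% of their sum. Dlx2 had 40.1, 33.8 and 46.45 CPM and was lowest in WT 2, where Dlx5, with 11.9, 26.6 and 18.9 CPM, was highest. Dlx4 had 0.0319, 0.513 and 0.396 CPM and was not detected.

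Genes that mark positions along the face separated the first arch from the arches behind it. All 10 genes of the maxillary and first arch list were detected and had 10 TPM or more, from Barx1, Lhx8, Pitx1 at 89.2 ± 20.1 and Osr2 down to Tbx22, a T-box gene of the palate, at 27.2 ± 5.28 TPM. Of all nuclear protein-coding genes 58.9% were detected and 40.9% had 10 TPM or more. None of the 39 Hox genes in the files, which mark the second and later arches, was detected, and 15 of them had no count in any sample. The highest, Hoxa2, had 0.999, 0.761 and 1.24 TPM. For Hoxd3, Hoxb3 and Hoxd4 only 37.15%, 47.1% and 47.7% of exon bases are free of other genes, so their counts are not read as levels. A Hox count of 0 is not read as absence. All 15 genes of the palatal shelf list were detected, among them Msx1 at 129 ± 7.59, Shox2 at 85.8 ± 10.4, Meox2 at 67.4 ± 10.6 and Mn1 at 54.2 ± 17.5 TPM. Foxf2, which answers Hedgehog signals in the palate, had 66.3, 68.5 and 115.2 CPM and was highest in WT 3.

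Genes named for neighbouring regions were present too. Of the mandibular list 8 of 10 were detected, against 58.9% of all nuclear protein-coding genes. Gsc, a homeodomain factor of the lower first arch, had 33.2, 18.3 and 32.9 CPM and was lowest in WT 2, whereas Hand2, a ventral arch factor, had 8.43, 15.8 and 16.7 CPM and was lowest in WT 1. Hand1 had 0.128, 0 and 0 CPM and was not detected. All 8 frontonasal genes were detected, led by Nr2f1 at 36.25 ± 10.98 and Alx1 at 34.4 ± 4.83 TPM, with Pax7 lowest at 2.635 ± 1.69 TPM. In the tooth list 10 of 11 were detected, and the enamel knot ligand Fgf4 was not.

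Of 308 signalling genes from pathways known in the face, 279 were detected and 210 had a mean of 10 TPM or more. Of all nuclear protein-coding genes these shares were 58.9% and 40.9%. Ligands had lower medians than receptors in the Wnt (2.96 against 30.2 TPM), FGF (1.62 against 24.5), Hedgehog (0.391 against 72.7), Notch (6.07 against 26.5) and BMP and TGF-beta (14.1 against 27.0) lists. They were also lower for PDGF (36.3 against 93.96) and endothelin genes (3.51 against 45.9), and nearly level with them for axon guidance (30.4 against 30.7) and neurotrophin genes (5.64 against 5.89). The opposite order was found for chemokine and VEGF genes (58.5 against 13.4) and for ectodysplasin, where a single ligand had 6.04 TPM against 2.93. The IGF ligands are 2 genes, and as the Igf2 count is not read as its level, they were not placed in an order. By CPM 196 of the 279 detected genes were highest in WT 3, where 50.2% of all detected genes were highest.

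**Figure D3:**
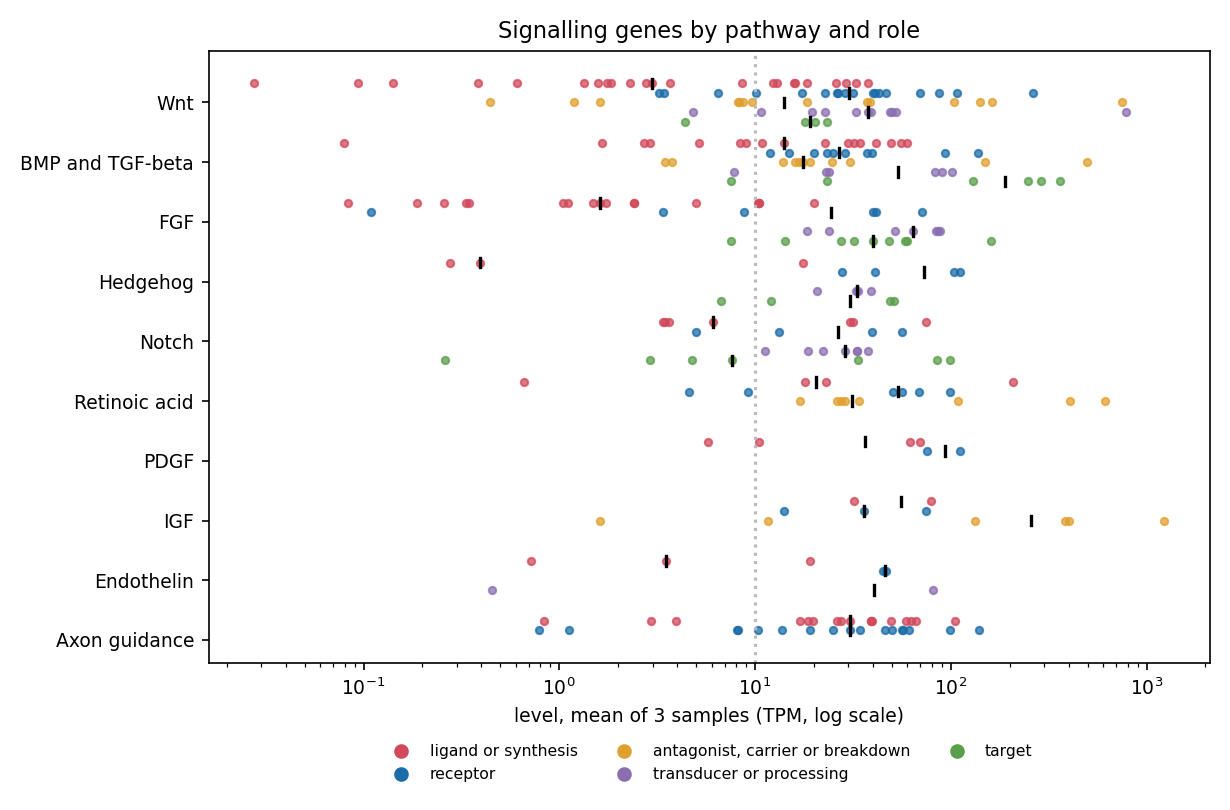
Points are genes of 10 pathways at their mean level over 3 WT samples (TPM, log axis), coloured by role, and black bars are medians. The dotted line marks 10 TPM, and 9 of 23 Wnt, 4 of 17 FGF and 1 of 3 Hedgehog ligands reach it.

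In the Wnt pathway, the leading secreted antagonists stood above the ligands. Sfrp2, Sfrp1 and Frzb, which bind Wnt proteins, had 754 ± 221.5, 162 ± 41.8 and 141 ± 17.7 TPM, and Sostdc1 had 104 ± 6.15 TPM. The ligands were led by Rspo3, which amplifies Wnt signals, at 37.96 ± 9.26, Wnt5a at 32.8 ± 6.26 and Wnt6 at 29.1 ± 5.165 TPM, and 16 of 23 were detected. Receptors were led by Fzd2 at 262 ± 49.98, Fzd1 at 108 ± 38.7 and Ryk at 87.4 ± 10.99 TPM. Ctnnb1, which codes for beta-catenin, a protein of both the pathway and cell junctions, had 1286, 1221 and 1453 CPM and a mean of 786 ± 137 TPM. The feedback target Axin2 had 23.3 ± 6.01 TPM. The ligands Wnt3, Wnt3a, Wnt7a, Wnt8a, Wnt8b, Rspo4 and Wnt1 were not detected.

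The BMP and TGF-beta genes were detected in 49 of 50 cases, the exception being Nodal, a ligand of gastrulation. Bmp1, a procollagen protease in spite of its name, led the ligand list at 59.55 ± 13.85 TPM, followed by Bmp7 at 55.98 ± 14.6, Tgfb2 at 49.55 ± 13.4, Bmp4 at 41.5 ± 8.67 and Tgfb3, the ligand of palatal fusion, at 34.2 ± 10.6 TPM. Bmpr1a at 138 ± 19.4 and Tgfbr1 at 93.7 ± 19.5 TPM led the receptors. The extracellular binding proteins Fstl1 and Twsg1 had 499 ± 77.9 and 149 ± 31.6 TPM. Smoc1, a BMP antagonist, had 45.6, 24.3 and 33.5 CPM and was lowest in WT 2. Among transducers Smad5, Smad4 and Smad3 had 102 ± 19.7, 89.8 ± 18.8 and 83.3 ± 20.1 TPM, and of the targets Msx1 was far above Msx2, which had 7.51 ± 2.66 TPM.

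FGF ligands were few and low, where 58.9% of all nuclear protein-coding genes were detected. Of 17, 7 were detected, led by Fgf18 at 20.03 ± 7.74, Fgf8 at 10.49 ± 4.76, Fgf10 at 10.4 ± 1.785 and Fgf9 at 10.4 ± 1.585 TPM. Fgf8, made by facial epithelium, had 6.995, 3.85 and 3.03 CPM and was highest in WT 1. Fgf17, Fgf16, Fgf20, Fgf5, Fgf15, Fgf22, Fgf21, Fgf3, Fgf6 and Fgf4 were not detected. The receptors were led by Fgfr1 at 71.2 ± 19.8, Fgfrl1 at 41.3 ± 9.32 and Fgfr2 at 40.1 ± 10.4 TPM. The feedback genes of the pathway were detected in 9 of 9 cases, with the phosphatase gene Dusp6 at 161 ± 32.4 TPM, Etv5 at 60.02 ± 15.9 and Spred1 at 58.1 ± 16.7 TPM.

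A single Hedgehog ligand was detected. Shh, made by oral epithelium, had 15.7, 18.1 and 15.2 CPM, whereas Dhh and Ihh had 0.3915 ± 0.0881 and 0.277 ± 0.114 TPM. All 12 receptors, transducers and targets were detected, with Smo, the signal transducer of the membrane, at 112 ± 30.15, the co-receptor gene Gas1 at 104 ± 24.4, and the targets Gli1 and Ptch1 at 51.2 ± 9.73 and 48.7 ± 12.1 TPM.

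In the Notch pathway 24 of 25 genes were detected, the exception being Hes5. Among ligands Dlk1, a non-canonical one, had 75.1 ± 16.2, and Jag1 and Jag2 had 31.6 ± 6.65 and 30.45 ± 5.93 TPM, above Dll1, Dll3 and Dll4 at 3.38 to 3.62 TPM. The leading receptor was Notch3 at 56.6 ± 16.01 and the leading targets were Hes6 at 99.6 ± 18.5 and Hes1 at 85.15 ± 19.7 TPM. Hes6 had 47.75, 76.2 and 53.5 CPM and was highest in WT 2.

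Among retinoic acid genes the cytoplasmic carriers led. Crabp1 and Crabp2 had 616 ± 65.9 and 406 ± 56.7 TPM. Aldh1a2 had 171.5, 119 and 167 CPM and was lowest in WT 2, and Aldh1a1 was not detected. The genes of the breakdown enzymes Cyp26b1, Cyp26c1 and Cyp26a1 had 34.01 ± 9.703, 28.8 ± 10.4 and 27.35 ± 1.65 TPM. The first pair ran in opposite orders, as Cyp26c1 had 22.9, 15.7 and 10.8 CPM and Cyp26b1 47.3, 56.4 and 72.5 CPM.

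The remaining pathways had these leaders. The PDGF receptors Pdgfra and Pdgfrb had 112 ± 29.4 and 75.8 ± 18.3 TPM, and the ligands Pdgfc and Pdgfa 69.5 ± 8.71 and 62.2 ± 11.1 TPM. The IGF carriers Igfbp4 and Igfbp2 followed Igfbp5 at 404 ± 125 and 384 ± 88.1 TPM, and all 5 detected carriers were lowest in WT 1, where 42.5% of detected genes were lowest. In the endothelin pathway Edn3, a ligand for neural crest cells, had 19.2 ± 1.84 TPM and Edn1, which patterns the lower arch, 3.51 ± 0.951 TPM, and Edn2 was not detected. Ptn at 368 ± 20.5 and Cxcl12 at 139 ± 29.3 TPM followed Mdk among the chemokine and growth factor ligands. In axon guidance 33 of 34 genes were detected, all but the ligand gene Slit1, led by the receptor gene Epha3 at 140.1 ± 26.96 and the ligand gene Efnb1 at 105 ± 18.5 TPM. Ntf3, a neurotrophin for sensory neurons, led its list at 34.6 ± 3.85 TPM, and the ectodysplasin gene Eda had 6.04 ± 1.61 TPM.

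Extracellular matrix genes were detected in 72 of 73 cases, all but Mfap5, against 58.9% of all nuclear protein-coding genes. Among fibrillar collagens Col3a1 had 1367, 1550 and 1408 CPM and 450.4 ± 24.9 TPM, ahead of Col1a2 at 257 ± 68.1, Col1a1 at 247 ± 92.6 and the cartilage collagen Col2a1 at 136 ± 54.1 TPM. Col1a1 had 352, 533 and 684 CPM and was lowest in WT 1, so it differed more between samples than Col3a1. The microfibril genes Mfap2 and Mfap4 led the glycoproteins at 597 ± 68.6 and 502 ± 24.9 TPM, followed by Postn at 317 ± 55.55 and Fn1 at 221 ± 83.2 TPM. Sparc at 364 ± 76.7 and Col4a1 at 196 ± 45.05 TPM led the basement membrane genes, and Vcan at 239 ± 55.4 and Lum at 211 ± 52.8 TPM followed Gpc3 among proteoglycans. All 9 genes of the list of other collagens, led by Col18a1 at 122 ± 15.4 TPM, were lowest in WT 1, against 42.5% of detected genes.

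Marker lists for 16 cell classes were used to ask which cells the dissected tissue held. In bulk samples fewer cells of a type and less RNA per cell cannot be told apart, so the levels below are not cell numbers. The median marker was at 1 TPM or more in 13 of 16 classes. Every marker was detected in 6 of them, which were erythroid cells, cranial mesenchyme, surface epithelium, skeletal muscle, endothelium and macrophages.

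**Figure D4:**
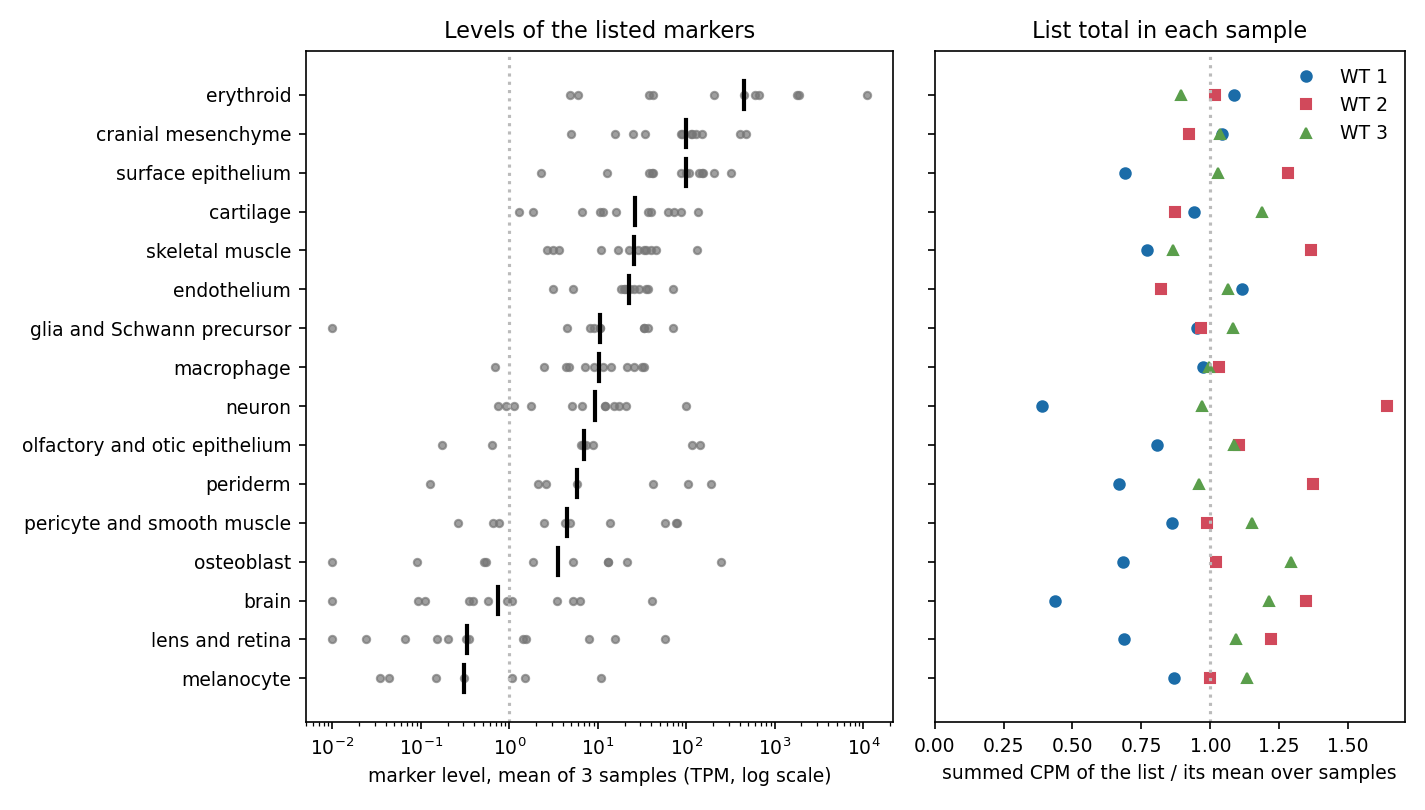
Left, each grey point is a marker at its mean level over 3 WT samples (TPM, log axis, with values under 0.01 drawn at 0.01), black bars are class medians and the dotted line marks 1 TPM. Right, the summed CPM of each list in a sample divided by the mean of the 3 samples. Neuron, periderm and surface epithelium lists are low in WT 1 and high in WT 2, and the macrophage list is nearly equal in all 3.

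Mesenchyme and epithelium had similar marker medians. The cranial mesenchyme list had a median of 100.2 TPM, led by Vim at 475 ± 35.2 and Twist1, and summed to 2450, 2165 and 2432 CPM. The surface epithelium list had a median of 97.8 TPM, led by Krt14 at 319.6 ± 95.1, Epcam at 208 ± 57.2, Krt18 at 154 ± 49.3 and Krt8 at 151 ± 45.5 TPM, which code for keratins and an adhesion protein. It summed to 765, 1421 and 1137 CPM, 1.86 times higher in WT 2 than in WT 1. Of its 13 markers, 12 were lowest in WT 1 and 12 were highest in WT 2, against 42.5% and 26.0% of all detected genes. The 5 detected periderm markers, led by Sfn at 191 ± 33.7 and Krt17 at 105 ± 63.2 TPM, were all lowest in WT 1 and highest in WT 2, and Krt6a and Krt4 were not detected.

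Neuronal markers had the most uneven sums, with 83.0, 350.9 and 207 CPM. Tubb3, a neuronal tubulin gene, had 14.98, 107 and 62.5 CPM, Stmn2 6.29, 54.1 and 24.5 CPM and Elavl3, an RNA-binding protein gene of neurons, 1.66, 29.03 and 14.9 CPM. All 10 detected markers were lowest in WT 1 and highest in WT 2, against 42.5% and 26.0% of all detected genes. With TMM scaling all 10 were still highest in WT 2, and 8 were lowest in WT 1, against 31.3% and 34.4%. Snap25 and Pou4f1 were not detected in every sample.

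Factors of the forebrain and sensory placodes took the same course. Lhx2 had 0.862, 41.6 and 26.3 CPM, Otx2 3.19, 29.7 and 18.4 CPM and Nhlh1 0.479, 18.1 and 11.8 CPM. Fezf1 and Neurog1, factors of the olfactory epithelium, had 0.2555, 14.3 and 6.82 CPM and 0.2555, 7.69 and 3.165 CPM. WT 1 was thus under 1 CPM for Lhx2, Nhlh1, Fezf1 and Neurog1, which the other samples expressed at 3 CPM or more. Of the olfactory and otic list 3 of 8 were detected, among them Sox2 and Otx1, and Omp, Oc90 and Gnrh1 were among those that were not. The part that the limits of the dissection had in these orders was not tested.

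Skeletal muscle genes were mostly highest in WT 2. All 12 markers were detected, led by Actc1 at 130.5 ± 50.4 and Myog at 45.2 ± 11.7 TPM, and they summed to 239.6, 425 and 269.6 CPM. Of the 12, 9 were highest in WT 2 and 8 lowest in WT 1, against 26.0% and 42.5% of all detected genes. With TMM scaling, however, 10 were highest in WT 2 and 8 lowest in WT 3, against 31.3% and 36.1%. Mylpf, the gene of a fast myosin light chain, had 16.96, 64.7 and 17.8 CPM, whereas Myf5, a gene of muscle precursors, had 3.29, 2.34 and 1.85 CPM.

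Vessels and blood followed other orders. All 12 endothelial markers were detected with a median of 22.3 TPM, led by Cdh5 at 71.2 ± 21.2 and Cldn5 at 37.0 ± 7.59 TPM, which code for junction proteins. They summed to 487, 358 and 466 CPM, and 9 of 12 were lowest in WT 2, where 33.6% of detected genes were lowest. Red cell RNA was led by Hbb-y, followed by Hba-a1 at 1863 ± 182 and the embryonic Hba-x at 1793 ± 701 TPM. Hba-x made up 59.5%, 37.8% and 50.8% of alpha-like globin CPM, and the adult-type genes Hbb-bs and Hbb-bt together 5.67%, 13.9% and 9.70% of beta-like CPM. The embryonic share was thus highest in WT 1 and lowest in WT 2 for alpha-like globins.

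Macrophage genes were the most even of the 16 lists. All 12 were detected, led by the complement genes C1qb at 32.85 ± 1.125 and C1qa at 31.2 ± 0.9655 TPM, and they summed to 107, 113.5 and 109.8 CPM. Glial and Schwann precursor markers, with 9 of 10 detected and led by Ngfr at 70.9 ± 15.25, Erbb3 at 36.7 ± 8.395 and Sox10 at 32.97 ± 8.395 TPM, summed to 229, 232 and 261 CPM. Mural cell markers were led by Acta2 at 78.7 ± 19.97 TPM, while Cnn1 was not detected. Tagln was not detected either, but only 32.1% of its exon bases are free of other genes, so its count is not read as its level.

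Early genes of cartilage and bone were present and late ones were low. The cartilage list was led by Col2a1, Col9a1 at 86.01 ± 20.3 and Col9a2 at 72.9 ± 16.4 TPM, with the lineage factor Sox9 at 61.9 ± 22.45 TPM, but the late matrix gene Acan had 1.84 ± 0.833 TPM and Matn1 was not detected. Of 10 osteoblast markers 6 were detected, and Col1a1 made up 81.7% of their sum. Runx2, the early factor of bone, had 21.1 ± 6.43 TPM and Sp7, which acts after it, 5.27 ± 1.63 TPM. The mineralised matrix genes Bglap, Ibsp, Dmp1 and Mepe were not detected. All 6 detected osteoblast markers were lowest in WT 1, where 42.5% of detected genes were lowest. With TMM scaling 5 of the 6 were, against 34.4% of detected genes.

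The 3 classes with a median under 1 TPM were brain, lens and retina, and melanocyte. Of 12 brain markers 2 were detected in every sample. Neurod1, a factor of early neurons, had 0.2555, 10.96 and 5.901 CPM and Olig2 0.351, 7.88 and 4.945 CPM, so both were under 1 CPM in WT 1 alone, while Neurod2 had 0.128, 0.128 and 0.03297 CPM. Of 12 lens and retina markers Mab21l2, also a gene of facial mesenchyme, at 57.98 ± 12.2 and Six3 at 7.88 ± 4.31 TPM were detected, and Cryaa and Cryga, which code for lens crystallins, were not. Of 7 melanocyte markers Kit at 10.8 ± 2.065 and Mitf at 1.49 ± 0.447 TPM were detected, and the pigment enzyme genes Tyr, Tyrp1 and Dct were not.

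Genes of DNA replication and mitosis were expressed throughout. Each of the 20 genes of S phase and the 20 of G2 and M phase was detected, with medians of 69.4 and 103.7 TPM. Pcna, which codes for the clamp of DNA polymerase, had 393, 388 and 287 CPM and was lowest in WT 3. Top2a, a topoisomerase gene, had 876, 691 and 756 CPM and was lowest in WT 2. Of the 20 G2 and M phase genes, 13 were lowest in WT 2, where 33.6% of detected genes were lowest, and 13 were highest in WT 1, where 23.8% were highest. Cdk4 at 757 ± 53.5 TPM led the list of cyclins, kinases and inhibitors, and the imprinted inhibitor gene Cdkn1c had 403 ± 96.1 TPM. Cdkn2a and Cdkn2b were not detected.

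Genes that respond to handling ranged from low to well expressed. Of the 16 immediate early genes, 11 were detected and 5 had 10 TPM or more, against 58.9% and 40.9% of all nuclear protein-coding genes. Fosb, Egr2 and Egr3 were not detected, and Fos, with 0.926, 1.76 and 1.02 CPM, was under the limit in WT 1 alone. The list, led by Ier2 at 94.9 ± 16.2 and Jun at 59.8 ± 10.96 TPM, summed to 175.9, 225.6 and 232 CPM. The constitutive chaperone genes Hsp90ab1 and Hspa8 had 2575 ± 472 and 1745 ± 299 TPM, whereas the inducible Hspa1b had 4.87 ± 0.403 TPM. After H19 and Nnat, the imprinted genes Grb10 and Mest had 568 ± 102 and 526.5 ± 66.6 TPM.

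Sex-linked genes differed between the samples. Xist, which is made from the inactive X chromosome of females, had 1318, 9.84 and 1100 CPM. The Y-linked genes Ddx3y, Eif2s3y, Uty and Kdm5d were detected in every sample, with 28.04, 78.35 and 63.8 CPM for Ddx3y and 23.9, 65.6 and 42.8 CPM for Kdm5d. WT 1 and WT 3 thus held both Xist and Y-linked RNA, and WT 2 held little Xist. Ddx3x and Eif2s3x, X-linked genes that escape inactivation, had 863, 661 and 835 CPM and 210.3, 128 and 182 CPM and were lowest in WT 2. The part of embryo sex in the other orders between samples was not tested.

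The spread between samples was measured as the excess coefficient of variation (CV), which is the CV after the part expected from counting error is removed, over 10147 genes with a mean of 10 CPM or more. Its median was 0.1165, and 90% of genes lay under 0.224. In pairs, which hold 2 samples and not 3, it was 0.104 without WT 1, 0.116 without WT 2 and 0.0640 without WT 3. A median CV from fewer samples is lower for the same spread. Over all 3 samples the median was 0.117 at 10 to 30 CPM, 0.113 at 30 to 100 CPM and 0.122 at 100 to 300 CPM. It was 0.174 for 96 genes at 1000 CPM or more. The median gene differed 1.10 times between WT 1 and WT 2, 1.19 times between WT 1 and WT 3 and 1.17 times between WT 2 and WT 3.

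**Figure D5:**
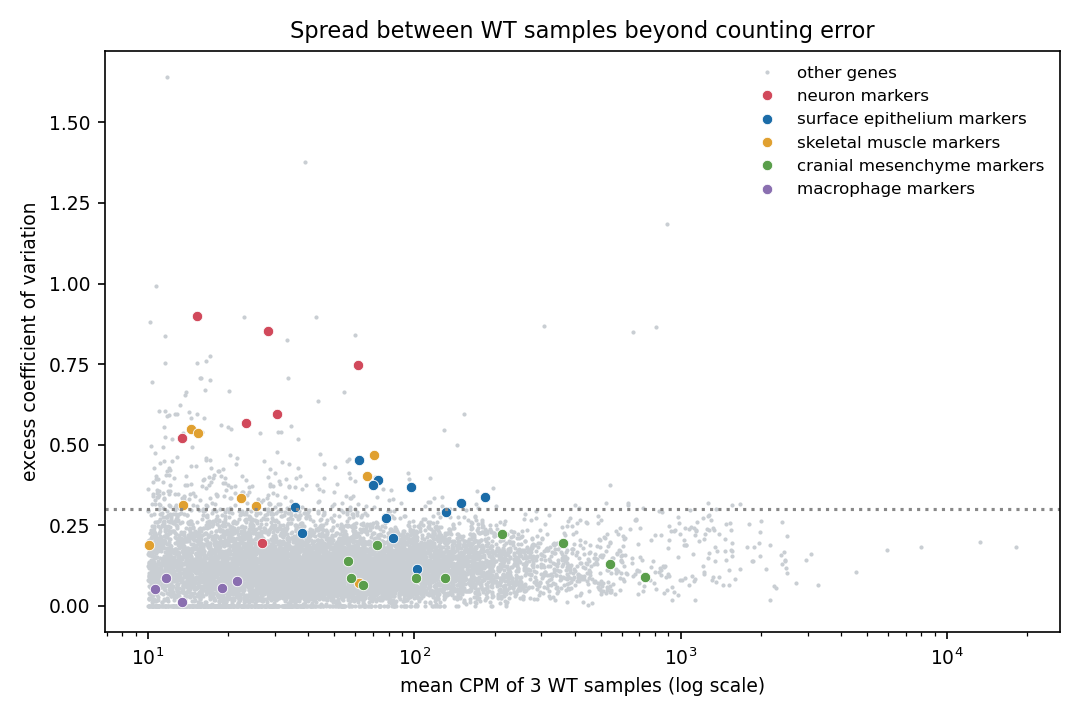
Each point is a gene with a mean of 10 CPM or more, by its mean CPM (log axis) and its excess CV over 3 WT samples, with the dotted line at 0.3. Coloured points are markers of 5 cell classes. The median of the 7 neuron markers at this level is 0.597 and that of the 5 macrophage markers 0.0550.

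Of these genes 307, or 3.03%, had an excess CV over 0.3. In pairs of samples 410 to 575 genes had one, and a CV from 2 samples is itself more variable. Of the 307, 226 were lowest in WT 1, which is 73.6% against 39.0% of all 10147 genes, and 174 were highest in WT 2, which is 56.7% against 21.3%. Genes over 2 times lower in WT 1 than in both other samples numbered 64, against 8 for WT 2 and 1 for WT 3. For markers with a mean of 10 CPM or more, the median excess CV was 0.0550 for macrophages (5 of 12 markers) and 0.1105 for cranial mesenchyme (10 of 12). It was 0.219 for endothelium (11 of 12), 0.313 for surface epithelium (12 of 13), 0.336 for skeletal muscle (9 of 12) and 0.597 for neurons (7 of 12). It was 0.602 for lens and retina, where it rests on 3 markers.

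The 20 genes with the largest excess CV fell into few kinds. Ina, Elavl3, Stmn2, Rtn1 and Tubb3, known from neurons, and the factors Lhx2, Nhlh1, Nhlh2, Otx2 and Sp8 were lowest in WT 1 and highest in WT 2. Fstl5 with 3.32, 28.3 and 17.8 CPM and Gstm1, a detoxifying enzyme gene, with 25.5, 117 and 36.4 CPM had the same order, as had Mylpf. Xist was also among the 20. CT010467.1, annotated as a ribosomal RNA gene, had 290.1, 2097 and 270.5 CPM, and Lars2 89.97, 604 and 225 CPM, and the small entries Gm24270 and Gm23935 were likewise highest in WT 2. The processed pseudogenes Gm6969 and Gm6472 were high in WT 3, with 0.703, 0.545 and 34.15 CPM and 7.155, 8.685 and 100.4 CPM.

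At the other end, 426 of the 10147 genes, or 4.198%, showed no spread beyond counting error. The 5 most abundant of them by CPM were Rrbp1, Lamp2, Id3, Ahcy and Dlst. Rrbp1, a gene of the rough endoplasmic reticulum, had 222.5, 223 and 219 CPM. Id3 had 169, 168 and 169.6 CPM, while Id2, close to it in level, had 230.5, 216 and 149.5 CPM and was lowest in WT 3.

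Some levels are bounded by the way reads were assigned. Reads that overlapped several genes made up 6.31% to 6.90% of all reads in the tables, those that matched several places 5.25% to 6.24%, and neither enters a gene count. Of 1299 listed genes, 24 have under 50% of their exon bases free of other genes in the GENCODE M21 annotation. For Igf2, the main fetal growth ligand, 35.45% are free, and its 91.7, 114 and 226 CPM is not read here as its level. Jund, with 47.4% free, is listed at 0, 0 and 1 counts. Foxd3 and Rtl1 are listed at 0, although 96.2% and 91.6% of their exon bases are free, and this is not read as absence.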

How the data were processed

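The authors aligned the reads to mm10 with STAR 2.7.3a and deposited raw counts per Ensembl gene from HTSeq 0.12.4 (tool versions from the submitters' processing notes, which also name FastQC). The annotation release and the strand setting are not given in the sources used here, and the library kit does not mark strand, so overlapping and antisense genes cannot be told apart. The 5 summary lines of each file were dropped before scaling. Of these, reads on no gene made up 5.03% to 5.43%, ambiguous reads 6.31% to 6.90% and reads with several matches 5.25% to 6.24% of all reads in the tables. Totals of 30332754 to 31308813 counts remained.

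Counts were scaled to CPM by the total on genes, and to TPM by the union exon length in GENCODE M21, which held 53706 of 53801 gene IDs (95 unmatched). TMM factors were computed with edgeR 4.0.16 and median-ratio factors with DESeq2 1.42.0 in R 4.3.3, other steps with Python 3.11.15. Excess CV is the square root of the count variance beyond Poisson error, over the mean. All results describe 1 group, so no test was run. The calculation of excess CV was tested on simulated counts. Promoters come from the RefSeq table of GRCm38.p6.

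The members and lists were chosen with earlier results of these data known. Genes were named by rule: the 20 most abundant coding genes, the 20 most abundant transcription factors and the 3 highest of each family, the 3 highest signalling genes of each role with ligands not detected, the 4 highest of other lists with members not detected, paralogues, the 20 largest and 5 smallest excess CVs, and sex-linked genes. Not every gene under the rule is printed, and some further list members were named after their values were seen. Values of a few list members are not reported here. Alternatives were other thresholds, gene lengths, scalings and leaving out each sample. The 3 samples of the other genotype were not used.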

Additional observations from a re-analysis of the deposited data

How the results depend on the processing

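No paired analysis was possible because a single group was described and no test was made. The share of counts on the 100 most counted genes, 20.1%, was 17.14% without mitochondrially encoded genes and 17.07% without globin genes as well. Ranked by CPM, which favours long genes, 12 of the 20 most abundant transcription factors were still among the first 20. Genes with an excess CV over 0.3 numbered 307, but 68 at a minimum of 50 CPM, where fewer genes are tested, and 410 to 575 when 1 sample was left out, with 575 without WT 2. The median excess CV was 0.1165 over 3 samples and, in pairs, 0.06398 without WT 3, 0.1044 without WT 1 and 0.1158 without WT 2. With so few samples the median of this estimate lies under the true CV, more so with 2 than with 3. A pair is therefore compared with another pair and not with all 3, also for the genes over 0.3. The cause of the differences between pairs was not tested.

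The other counts stayed within 1.5 times under every alternative run. Detected genes numbered 12727 to 16310, transcription factors at 10 TPM or more 278 to 370, signalling genes 201 to 239 and paralogue groups with 1 leader 50 to 54, and 13 cell classes had a median of 1 TPM or more. Leaving out genes shorter than 200 bases was added after seeing the data. With 3 samples an SD is itself imprecise.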

Other observations

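Mitochondrially encoded genes differed widely in level. The mean was 35950 TPM for mt-Co1, 21310 for mt-Cytb and 18890 for mt-Nd1, but 78.0 for mt-Co2, 58.8 for mt-Co3 and 47.8 for mt-Atp6, although these genes code for subunits of the same respiratory chain. The low genes were low in each sample, with 18.01, 19.6 and 14.9 CPM for mt-Co2. The part of reads with several matches in that gap was not tested.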
